A study of Homo sapiens with 6 samples.

Results

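The genes described here encode 8 subunits of the transcription factor AP-1: FOS, FOSB, FOSL1, FOSL2, JUN, JUNB, JUND and ATF3. They were taken by name from the 38340 genes of the RefSeq gene table used here, with earlier results of these data known. For each gene the window was its GRCh38 span plus 20 kb on either side, and every listed peak that overlapped a window was taken. Chromatin accessibility had been measured by ATAC-seq, in which a transposase inserts sequencing adapters into open DNA, so that many fragments pile up where chromatin is open. All 6 libraries came from NCI-H1703, an established cell line of lung squamous cell carcinoma. The silenced group holds 3 libraries of cells with silenced DLGAP1-AS2, a long non-coding RNA (titled ASO_1 to ASO_3), and the control group 3 libraries (titled NC_1 to NC_3). Both groups are the same unmodified line as far as the labels say, the agent is given only as ASO in the titles, and the labels do not say whether the 3 libraries of a group came from separate cultures, so that p-values measure only the spread between these libraries.

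AP-1 is a dimer of basic leucine zipper proteins. The FOS proteins (FOS, FOSB, FOSL1 or FRA-1, FOSL2 or FRA-2) cannot pair with each other and bind DNA with a JUN partner, while JUN, JUNB and JUND can also pair among themselves and with ATF proteins. FOS, FOSB, JUN, JUNB and ATF3 are classical immediate early genes, switched on within minutes of growth factors, serum or stress through MAP kinases and the serum response factor SRF. JUND is expressed more steadily, and FOSL1 is a slower and longer-lived member known for its high levels in many invasive carcinomas. Open chromatin at a gene is not its expression, and these libraries hold DNA only.

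The deposited list of each library gives every peak an interval, a height (the authors' pileup of fragments) and a fold enrichment, read here as the height plus 1 over the local background plus 1. Heights grow with sequencing depth, and total reads are not given, so the depth is unknown. The lists held 91346 to 170882 peaks on the chromosomes. Silenced replicate 3 stood apart: the median height over the 37284 regions listed in all 6 libraries was 10 there and 16 to 19 in the other libraries. The lowest local background in its list was 0.24, against 0.37 to 0.46 in the other lists. Raw heights were not adjusted by that value. Values are listed below in the order of the replicate numbers, silenced libraries before control libraries. Raw heights are given beside the fold, the rank of the fold within a list and the height relative to the library's own median. Among the defining markers of squamous carcinoma, SOX2 had a peak within 1 kb of its start in all 6 lists, KRT5 and KRT6A had none in any list, and TP63 had one in 1 list at a height of 2. The alveolar and adenocarcinoma factor NKX2-1 (up to 36 in height) and the blood factor SPI1 (up to 45) had one in all 6 lists.

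Promoter sequence is shown for 3 genes, because the start peaks of FOS and JUND were the ones lower in every silenced library, and the promoter of JUN holds a variant of the site that JUN and ATF dimers are known to bind. Of 15920 genes with a start peak in every list, 8.1% had heights lower in every silenced library than in every control. Each line holds the 250 bases before the gene start, written 5′ to 3′ on the gene's strand, from RefSeq (GRCh38.p14). Capitals mark the 8 letters of a cyclic AMP response element, TGACGTCA, or of the variant known from the JUN promoter, TGACATCA.
FOS chr14:75278578-75278827 (+ strand): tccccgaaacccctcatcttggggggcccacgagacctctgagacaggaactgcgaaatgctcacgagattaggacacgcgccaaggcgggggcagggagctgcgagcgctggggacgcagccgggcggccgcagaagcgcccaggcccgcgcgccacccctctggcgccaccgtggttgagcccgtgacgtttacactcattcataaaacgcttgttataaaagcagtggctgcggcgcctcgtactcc
JUN chr1:58784048-58784297 (- strand): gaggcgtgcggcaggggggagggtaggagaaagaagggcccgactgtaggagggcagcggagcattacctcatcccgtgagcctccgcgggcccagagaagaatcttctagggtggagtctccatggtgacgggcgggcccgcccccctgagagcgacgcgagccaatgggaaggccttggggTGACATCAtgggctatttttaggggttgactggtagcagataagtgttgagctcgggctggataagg
JUND chr19:18281623-18281872 (- strand): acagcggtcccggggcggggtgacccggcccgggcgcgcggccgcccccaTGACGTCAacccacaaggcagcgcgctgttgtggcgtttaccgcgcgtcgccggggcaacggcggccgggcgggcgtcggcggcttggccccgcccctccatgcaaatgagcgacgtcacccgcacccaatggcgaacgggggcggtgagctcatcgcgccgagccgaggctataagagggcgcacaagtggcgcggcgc
Counted back from the gene start, the JUN match lay at bases 67 to 60 before the start, the JUND match at bases 200 to 193, and ATF3 had a TGACATCA match at bases 123 to 116 before the first of its 2 starts in the promoter table used here. On either strand, TGACATCA was present in 2.37% of 35116 RefSeq promoter windows cut to the same length, and TGACGTCA in 1.65%. The AP-1 site TGACTCA, present in 4.20% of them, and the CArG box that SRF binds, present in 1.16%, matched in none of the 8 windows found for 7 of these genes. Sequence more than 250 bases before a start, or after it, was not searched, so sites there would be missed. The letters TATAAA (10.7% of promoters) stood 33 to 28 bases before the FOS start, 30 to 25 before the FOSB start and 31 to 26 before the JUNB start. The JUND window was 74.8% G or C with 40 CpG pairs and the FOS window 64.8% with 25, against medians of 58% and 11 over all promoters, whereas the window of that ATF3 start was 49.2% G or C with 4. These matches are letters only and no site of binding was measured. FOSL1 was not matched to a sequence.

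The windows held 100 regions after overlapping peaks were merged over the lists, and 2 of them followed the groups in presence, both at FOS: 1 was listed in the 3 controls alone and 1 in the 3 silenced libraries alone. In the whole genome these shares were 0.2% and 0.13% of 507440 regions, most of which were listed in 1 library. Of the 100 regions, 32 (32%) were listed in all 6 libraries, 30 in 2 to 5 libraries and 38 (38%) in 1 library. Over the genome, 7.35% of 507440 regions were listed in all 6 libraries and 74.1% in 1. The windows of these genes held a median of 4 regions common to all lists, with 7 around FOSL1, 6 around FOSB, 5 around JUNB, 4 around FOS and around ATF3, 3 around JUND, 2 around FOSL2 and 1 around JUN. Over windows of 20037 protein-coding genes the median was 2, with quartiles of 1 and 4. The number of listed peaks in the 8 windows was 63, 61 and 47 in silenced cells against 61, 61 and 59 in the controls. Silenced cells averaged 57 ± 8.72 peaks and controls 60.3 ± 1.15 (SD, n = 3 each), the ranges overlapped, and without silenced replicate 3 the difference turned from 3.33 fewer to 1.67 more peaks in silenced cells.

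None of the AP-1 genes passed the test across all genes. For each of 15920 genes with a peak within 1 kb of its start in all 6 lists, the fold of the strongest such peak was ranked within each list, turned into a normal score, and compared with limma at a Benjamini-Hochberg adjusted p of 0.05. Of these genes 0 (0%) were called, and 811 (5.09%) had an unadjusted p under 0.05. No other tool was run on the scores. Of the 8 genes, 7 could be tested. Among them, 3 scores were higher and 4 lower in silenced cells, with a median difference of -0.03, beside 0.01 over all genes tested. None had an unadjusted p under 0.05, and the smallest adjusted p was 0.960, for JUN. ATF3 could not be tested in this way, since only 3 lists had a peak within 1 kb of either of the starts used for it.

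FOS, whose protein is the prototype partner of JUN, had a lower peak at its start in all 3 silenced libraries. The heights were 25, 26 and 17 in silenced cells against 41, 37 and 42 in controls. The groups did not overlap, and the control mean (40.0 ± 2.65, SD, n = 3) was 1.76 times the silenced mean (22.7 ± 4.93, SD, n = 3). Without silenced replicate 3 the ratio was 1.57 and the groups still did not overlap, though the share of all genes was not counted for that setting. A two-sided exact permutation test gave p = 0.1, the smallest that 3 libraries against 3 can give. The peak spanned the gene start (chromosome 14, position 75278828), from 75278362 to 75279140 in silenced replicate 1 and over much the same stretch in 4 other libraries. In silenced replicate 3 the list held 2 separate intervals there, with heights of 17 and 11, which together covered 75 of the 250 promoter bases printed above. All 250 were covered in each of the other 5 libraries.

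**Figure D1:**
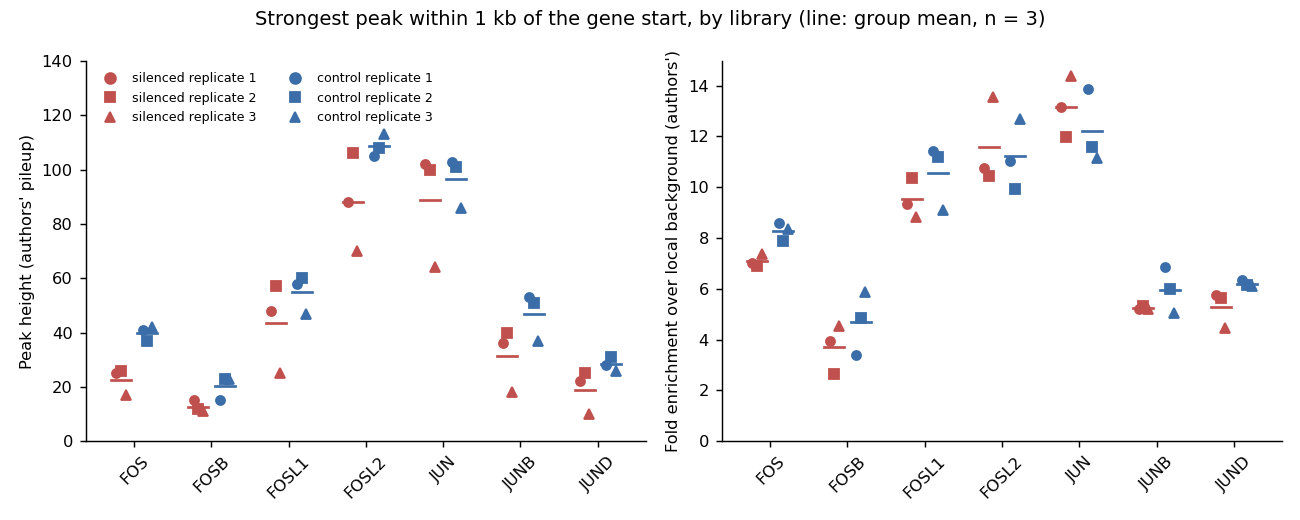
Height (left) and fold enrichment (right) of the strongest peak within 1 kb of the gene start for the 7 AP-1 genes with such a peak in all 6 lists; each point is 1 library (silenced red, control blue; circle, square and triangle for replicates 1, 2 and 3) and each line a group mean (n = 3). FOS and JUND are the genes whose 3 silenced points lie below all 3 control points in both panels, and silenced replicate 3 has the lowest height for every gene.

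The fold enrichment of the FOS peak was 7.03, 6.89 and 7.38 in the silenced libraries and 8.57, 7.88 and 8.37 in the controls. These values did not overlap either, with means of 7.10 ± 0.252 and 8.27 ± 0.353 (SD, n = 3 each). The local background under the peak was lower in silenced cells as well, at 2.70, 2.92 and 1.44 against 3.90, 3.82 and 4.14, again without overlap. It was recomputed from the same height and fold and is not independent of them. Like the height it is not adjusted for depth, and the share of all genes without overlap in it was not counted. Ranked within each list, the FOS peak did not separate the groups. It stood at percentiles 19.98, 16.4 and 39.2 of the 15920 gene-start peaks in silenced cells against 28.8, 23.6 and 27.0 in controls, counted from the lowest fold. The groups overlapped, silenced replicate 3 being the highest, and the score difference was -0.07 (SE 0.25, 95% interval -0.59 to 0.45, limma adjusted p = 0.984). Relative to the median height of gene-start peaks in each library, the FOS peak lay at log2 values of -0.44, -0.62 and 0.00 in silenced cells and 0.19, -0.11 and 0.22 in controls. Silenced replicate 3 again overlapped with the controls, and the difference was -0.45 (SE 0.22, 95% interval -0.92 to 0.01, limma adjusted p = 0.876). Without that library the relative heights at FOS did not overlap between groups, and the same held for FOSL2 and JUND. The share of all genes without overlap was not counted for 2 silenced libraries against 3 controls. Groups separate more easily with fewer libraries, so no result is read from these 3 genes. With all libraries, the overlap at FOS also depended on the median used. Relative to the median of the regions common to all lists, the FOS start lay at 0.64, 0.53 and 0.77 in silenced cells. The controls lay at 1.27, 0.96 and 1.30, with no overlap.

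The local background behind the FOS peak, set relative to its median over gene-start peaks in the same library, gave the lowest unadjusted p of the 7 genes. The log2 values were 0.40, 0.30 and 0.47 in silenced cells against 0.87, 0.60 and 0.93 in controls, with no overlap. The difference was -0.41 (SE 0.11), with the 22nd lowest p of 15920 genes in limma and an adjusted p of 0.741. This measure was added after the data had been seen. It called 1 gene (0.00628%), NDRG4, which is no AP-1 gene and was higher in silenced cells by 1.64 (limma adjusted p = 9.39e-06), and 988 genes had an unadjusted p under 0.05. JUNB and JUND also had lower relative backgrounds in all 3 silenced libraries, at differences of -0.15 and -0.16 (JUNB in silenced replicate 3 is represented by a neighbouring peak, and both hold without that library), while JUN had higher ones in all 3, at 0.09 (limma adjusted p = 0.837). Over all genes tested, 5.03% had a relative background lower in every silenced library than in every control and 7.48% a higher one. These shares were not counted without silenced replicate 3. The lower background thus went with the lower height at FOS, from which it was in part computed, and it is no separate result. Neighbouring peaks had nearly the same background, as in silenced replicate 1, with 2.60 at 1.5 kb before FOS and 2.70 at its start. How far fragments of the peak and its neighbours enter the background was not tested.

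**Figure D2:**
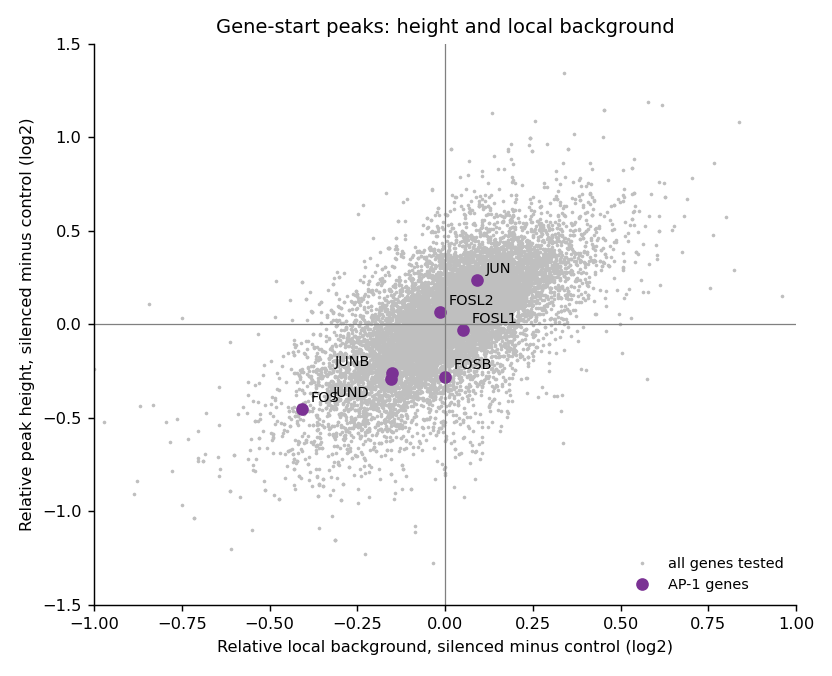
Difference between silenced and control libraries (mean log2 difference, n = 3 each) in the relative local background (horizontal) and in the relative height (vertical) of gene-start peaks; grey points are the 15920 genes tested, of which 6 lie outside the axes, and purple points are the 7 AP-1 genes. FOS lies lowest on both axes among the 7, at -0.41 and -0.45, and JUN lies above 0 on both.

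Other regions of the FOS window had lower raw heights too. Of its 12 regions, 4 were listed in all 6 libraries, and 3 of these had lower heights in every silenced library. Among all regions of the genome listed in all 6 libraries, 8.79% had lower heights in every silenced library and 0.161% higher ones. The 3 FOS regions are neighbours and not independent. The strongest lay 19.6 kb before the start (chromosome 14, 75258685 to 75259684), with heights of 94, 96 and 53 in silenced and 101, 114 and 108 in control cells, and a score difference of -0.34 (SE 0.21, limma adjusted p = 0.963). The groups did not overlap in height, while silenced replicate 3 lay far below the other 5 libraries. A region 1.5 kb before the start (75276915 to 75277830) had heights of 12, 21 and 8 against 26, 24 and 22, also without overlap, and a score difference of -0.25 (SE 0.43, adjusted p = 0.974). The other one lay 15.4 kb after the start (75293860 to 75294513), 0.22 kb from an end of the non-coding gene LINC01220. Its heights were 50, 56 and 26 against 65, 74 and 51, where silenced replicate 2 was above control replicate 3, and its score difference was -0.0010 (SE 0.20).

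The region that the control lists alone shared lay 17.4 kb after the FOS start (chromosome 14, 75296086 to 75296383). Its heights were 19, 15 and 11, with deposited FDRs of 1.5e-06, 0.000952 and 0.0101. Over the genome 1016 regions (0.2%) were listed only in all 3 controls and 662 (0.13%) only in all 3 silenced libraries. In 63 (6.20%) of the 1016 the lowest of the 3 heights was at least 11. A region 11.1 kb before the start was listed only in the silenced libraries, at heights of 2, 3 and 3, which is near the lowest height of these lists. The list of control replicate 2 was the shortest, with 91346 peaks and a lowest height of 3. Absence from a list is not evidence of closed chromatin. Of 154 regions with a height of at least 20 in each of 5 lists, 138 were missing from that of silenced replicate 3, and 1 to 5 from each of the others. The AP-1 windows held examples, such as the region 2.2 kb before FOSL2, with heights of 25 and 38 in silenced replicates 1 and 2, none listed in replicate 3, and 25, 38 and 26 in the controls.

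**Figure D3:**
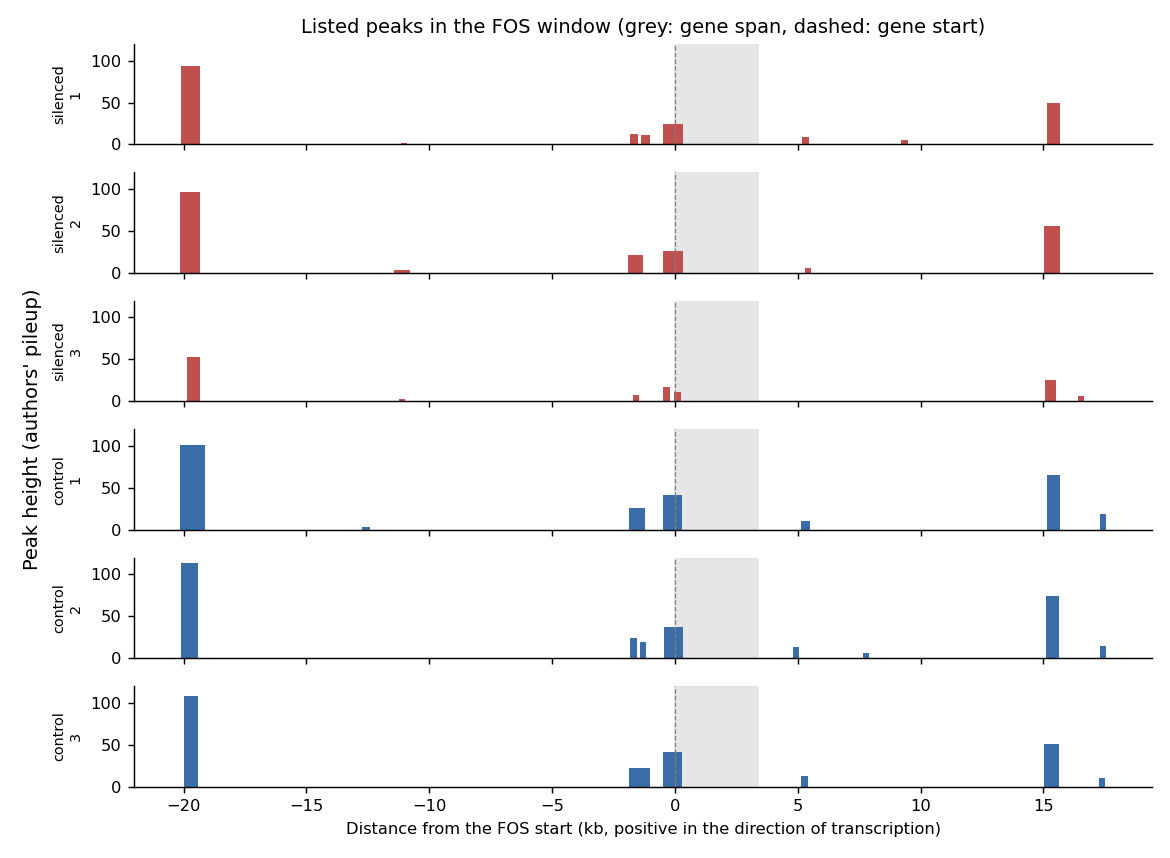
Listed peaks in the FOS window, 1 row per library (silenced red, control blue), by distance from the FOS start in kb (horizontal, positive in the direction of transcription) and height (vertical, same scale in each row); grey shading is the gene span. The peaks 19.6 kb before, at, and 15.4 kb after the start stand in all 6 rows, and the bar 17.4 kb after it stands in the 3 control rows with heights of 11 to 19.

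FOSB, the neuronal and stress-responsive paralogue of FOS, had the weakest start among the FOS genes. Its heights were 15, 12 and 11 in silenced and 15, 23 and 23 in control libraries, where silenced replicate 1 equalled control replicate 1. The means were 12.7 ± 2.08 and 20.3 ± 4.62 (SD, n = 3), the exact permutation p was 0.2, and the score difference was -0.31 (SE 0.48, 95% interval -1.34 to 0.71, adjusted p = 0.966). All 6 regions of the FOSB window were listed in all 6 libraries. A stronger one lay inside the gene, 1.6 kb after the start (chromosome 19, 45469115 to 45469999), with heights of 42, 54 and 15 against 43, 37 and 36. The strongest by fold, 12.1 kb before the start (45455478 to 45456325), had heights of 57, 54 and 19 against 45, 53 and 48. In both, silenced replicate 3 was the lowest library and silenced replicates 1 and 2 lay within or above the controls. The region 17.5 kb after the start (45485094 to 45485986) had heights of 25, 36 and 20 against 35, 46 and 37.

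Among the 32 regions of these windows common to all lists, 1 (3.12%), in the FOSB window, had an unadjusted p under 0.05, below the 4.68% over all 37284 such regions of the genome. It lay 17.4 kb before the FOSB start (chromosome 19, 45450146 to 45451078) and 0.94 kb from an end of ERCC1, a DNA repair gene. Its heights were 14, 20 and 7 in silenced and 10, 14 and 18 in control libraries and overlapped. Its folds were 5.91, 8.08 and 4.40 against 3.25, 3.87 and 5.56, also overlapping, with control replicate 3 above silenced replicate 3. The score difference was 1.07 (SE 0.44, limma adjusted p = 0.963), and ranked by height it was 0.17 (SE 0.27, adjusted p = 0.981).

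FOSL1, also called FRA-1, was open at the end of its span at position 65900545 of chromosome 11. The gene table used here gives no strand for FOSL1, and both ends were searched. The heights were 48, 57 and 25 in silenced and 58, 60 and 47 in control libraries. Silenced replicates 1 and 2 lay among the controls, the means were 43.3 ± 16.5 and 55.0 ± 7 (SD, n = 3), and without silenced replicate 3 the control mean was 1.05 times the silenced one. The score difference was -0.03 (SE 0.22, 95% interval -0.50 to 0.44). The FOSL1 window is crowded, with 6 other genes. Its strongest regions besides the start lay 18.7 kb beyond that end (65918987 to 65919546), near DRAP1, with heights of 84, 61 and 25 against 53, 72 and 62, and 15.3 kb beyond it (65915473 to 65916267), with 57, 38 and 37 against 38, 53 and 37. Neither separated the groups, and the score differences were 0.06 (SE 0.25) and 0.49 (SE 0.40).

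FOSL2, or FRA-2, and JUN had the tallest starts. The FOSL2 peak (chromosome 2, gene start 28392858) reached heights of 88, 106 and 70 in silenced and 105, 108 and 113 in control libraries. Silenced replicate 2 lay above control replicate 1, the means were 88.0 ± 18.0 and 108.7 ± 4.04 (SD, n = 3), and the exact permutation p was 0.2. The score difference was 0.19 (SE 0.26, 95% interval -0.37 to 0.75), opposite in sign to the raw heights. The other FOSL2 region listed in all libraries, 20.7 kb into the gene (28413265 to 28413933), was low, at 13, 12 and 3 against 11, 10 and 7, and overlapped.

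JUN, one of the partners of the FOS proteins, had heights of 102, 100 and 64 in silenced and 103, 101 and 86 in control libraries at its start (chromosome 1, 58784047). Without silenced replicate 3 the silenced mean of 101 was above the control mean of 96.7. The folds were 13.2, 12.0 and 14.4 against 13.9, 11.6 and 11.2 and overlapped. JUN had the highest score difference of the 7 genes, 0.28 (SE 0.25, 95% interval -0.25 to 0.81, adjusted p = 0.960). The start was the one region of the JUN window listed in all 6 libraries, and it covered all 250 promoter bases, the TGACATCA match included, in each. A region 1.2 kb before the start, 0.10 kb from an end of the divergent transcript JUN-DT, was listed in 3 libraries, at 19 and 24 in silenced replicates 1 and 2 and 27 in control replicate 2.

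JUNB, often a restraining partner of JUN, had heights of 36, 40 and 18 in silenced and 53, 51 and 37 in control libraries. Silenced replicate 2 was above control replicate 3, the means were 31.3 ± 11.7 and 47.0 ± 8.72 (SD, n = 3), and the exact permutation p was 0.2. In silenced replicate 3 the strongest peak within reach of the start was a neighbouring one, whose middle lies 1.3 kb before it, and the peak at the start itself had a height of 16. The score difference was 0.03 (SE 0.29, 95% interval -0.57 to 0.63) and -0.0074 when peaks had to lie within 500 bases of the start. The window holds 4 other genes, and its strongest other regions lay 15.2 kb after the start near RNASEH2A (chromosome 19, 12806248 to 12807118; heights 33, 32 and 12 against 23, 30 and 25) and 15.7 kb before it near HOOK2 (12775476 to 12776052; heights 32, 46 and 20 against 19, 31 and 53). Neither separated the groups.

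JUND, the JUN protein present in resting cells, was the other gene whose start was lower in every silenced library. The heights were 22, 25 and 10 in silenced and 28, 31 and 26 in control libraries (chromosome 19, gene start 18281622). The groups did not overlap, by 1 unit of height, and the control mean (28.3 ± 2.52, SD, n = 3) was 1.49 times the silenced mean (19.0 ± 7.94), or 1.21 times without silenced replicate 3. The folds were 5.75, 5.63 and 4.44 against 6.33, 6.13 and 6.11, and the relative heights -0.63, -0.68 and -0.77 against -0.36, -0.37 and -0.47 on the log2 scale, both without overlap (exact permutation p = 0.1 for each). The score difference was -0.07 (SE 0.26, 95% interval -0.61 to 0.48, limma adjusted p = 0.984), and that of the relative height -0.29 (SE 0.22, adjusted p = 0.876). The TGACGTCA match lay within the listed peak in silenced replicates 1 and 2 and in all controls, whereas the peak of silenced replicate 3 covered the 188 promoter bases nearest the start and ended before it. The JUND regions 2.0 kb after the start (18279505 to 18279837; 32, 34 and 17 against 31, 36 and 36) and 11.6 kb before it (18292802 to 18293640; 12, 12 and 8 against 8, 11 and 14) overlapped between groups.

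Read against the background, the lower heights at FOS and JUND were 2 of 7 genes, where 8.1% of the 15920 genes had heights lower in every silenced library than in every control. The same 2 genes had lower folds in every silenced library, against 7.49% of all genes, and JUND, but not FOS, had lower relative heights by the median of gene-start peaks, against 4.47%. By the median of the regions common to all lists both starts were lower in every silenced library, against 4.65% of those 37284 regions. The share of gene starts by that median was not counted. With 7 genes these counts are a description.

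ATF3, a stress-induced partner that often acts as a repressor, had its tallest peak inside its span on chromosome 1 (212565407 to 212620777). The promoter table used here lists 2 starts for ATF3 and is not complete, so other starts of this gene, which has several transcripts, were not analysed here. Within 1 kb of either listed start, the strongest peak had a height of 9 in silenced replicate 1, 5 in silenced replicate 3 and 9 in control replicate 2, and the other 3 lists held none. The tallest region of the window lay 43.1 kb after the first listed start (212608082 to 212608994). Its heights were 107, 103 and 84 in silenced and 106, 101 and 110 in control libraries, as tall as the starts of FOSL2 and JUN. The groups overlapped, with a score difference of 0.37 (SE 0.24, limma adjusted p = 0.963). A region 6.4 kb before the first start (212558685 to 212559333) had heights of 23, 39 and 15 against 37, 26 and 38 and a score difference of -0.06 (SE 0.26). No annotation of exons or of every transcript was used, so whether the tall region lies at a start, in an exon or in an intron of ATF3 was not analysed here.

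**Figure D4:**
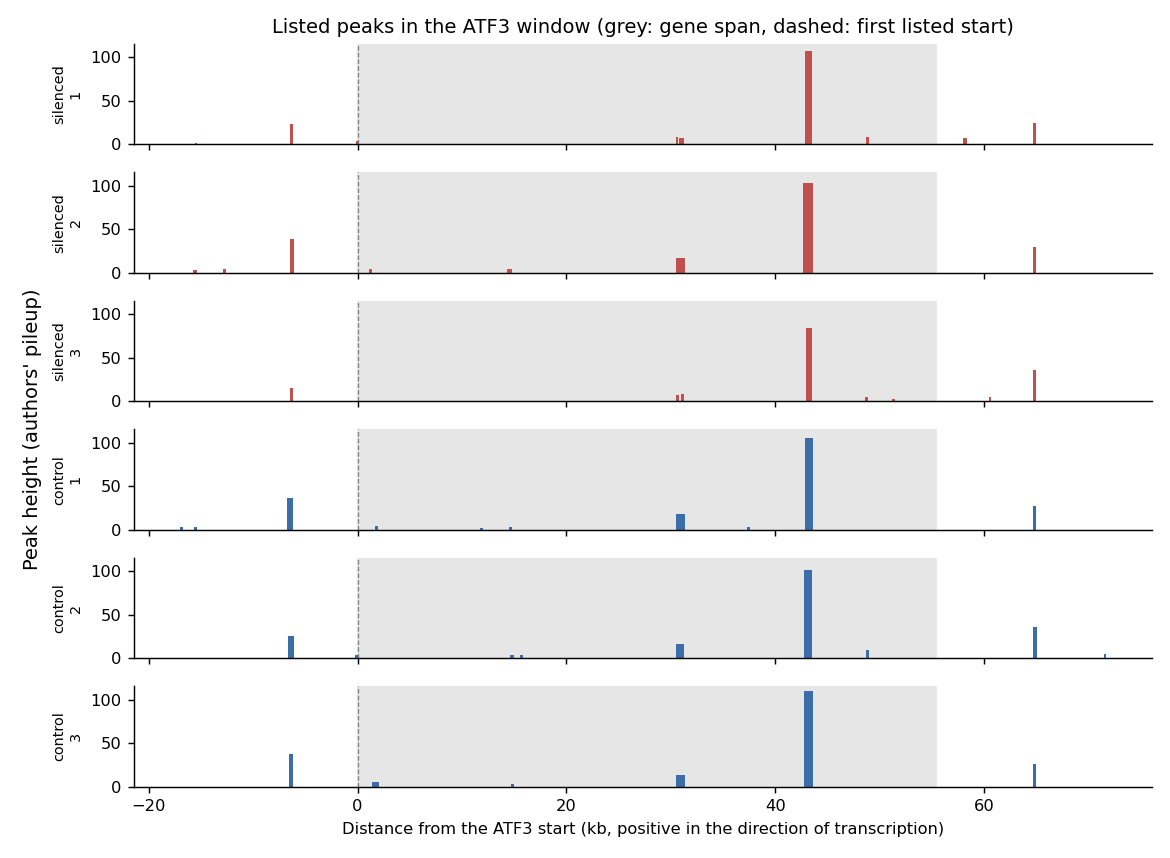
Listed peaks in the ATF3 window, 1 row per library (silenced red, control blue), by distance from the first listed ATF3 start in kb (horizontal) and height (vertical, same scale in each row); grey shading is the gene span. The peak 43.1 kb after the start stands in all 6 rows at heights of 84 to 110, while those at the first listed start reach a height of 4 at most.

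Over the 32 regions common to all lists, the AP-1 windows showed no shift past the test. Of 37284 such regions in the genome, 0 (0%) had an adjusted p under 0.05 and 1746 (4.68%) an unadjusted one, beside 1 of the 32 (3.12%). Of the 32, 20 scores were higher and 12 lower in silenced cells, with a median difference of 0.16 beside 0.01 over all regions. Heights were lower in every silenced library in 4 of the 32 (12.5%), which were the 3 FOS regions and the JUND start, where the share over the genome was 8.79%. Relative heights, here over the library's median of these 37284 regions, were lower in 5 (15.6%), the same 4 and the FOSB region 17.5 kb after the start, against 4.65%. Folds were lower in 2 (6.25%), the FOS and JUND starts, against 8.44%. None of the 32 was higher in every silenced library, where the shares over the genome were 0.161% for heights, 5.04% for relative heights and 1.82% for folds. The 3 FOS regions are neighbours in 1 window and are not independent.

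**Figure D5:**
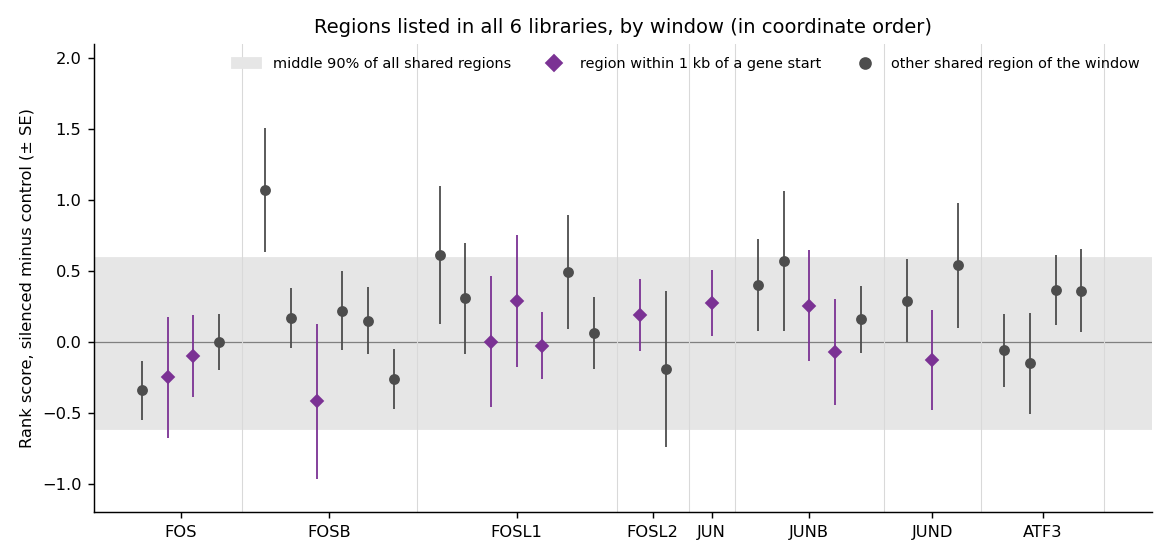
Difference in rank score between silenced and control libraries (± SE, n = 3 each) for the 32 regions listed in all 6 libraries, in coordinate order within each gene's window; purple diamonds are regions within 1 kb of a gene start (of either end for FOSL1) and grey circles the others, and the grey band holds the middle 90% of the 37284 regions (-0.62 to 0.59). The FOSB region at 1.07 is the point farthest outside the band.

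The partners, inputs and targets of AP-1 were read from 4 lists. Of 16 related basic leucine zipper genes, 13 could be tested, of which 9 scores were higher and 4 lower in silenced cells (median 0.18) and none passed the test. ATF6, a sensor of endoplasmic reticulum stress, had the lowest p, with heights of 24, 26 and 14 against 18, 26 and 16 and a score difference of 0.50 (SE 0.22, limma adjusted p = 0.938), followed by CREB5 at 0.40 (SE 0.23). The tallest starts were those of ATF2 (mean height 108.3 over the 6 libraries) and CREB1 (77.0), both partners or relatives that bind cyclic AMP response elements. Of 15 genes for MAP kinases, SRF and its cofactors, 12 could be tested, with 6 higher, 6 lower, a median of 0.0043 and none past the test. ELK4, an SRF cofactor, was at 0.46 (SE 0.23) and the kinase gene MAP2K4 at -0.52 (SE 0.32), and the tallest starts were MRTFA (123.8) and SRF (96.8).

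Of 16 other immediate early genes, 15 could be tested, of which 12 scores were higher and 3 lower (median 0.19), and none passed the test. IER2 stood at 0.57 (SE 0.34) and DUSP6, a phosphatase of ERK, at 0.40 (SE 0.28), and the tallest starts were EGR1 (125.7) and IER5 (79.2). Of 16 known AP-1 target genes, 7 could be tested, all 7 with higher scores (median 0.10) and none past the test, with VIM at 0.43 (SE 0.26, mean height 39.8) and TIMP1 at 0.32 (SE 0.27). Over all 15920 genes 51.9% of scores were higher. These lists share libraries with the 8 genes and no list was compared with another.

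By the distance between the 6 library scores, the gene of these lists or of the other AP-1 genes (53 genes in all) nearest to FOS was DUSP1, another immediate early gene and phosphatase (distance 0.63), followed by EGR1 (0.66). The nearest to JUN was TIMP1 (0.45), to JUNB HMOX1 (0.22), to JUND EGR3 (0.39), to FOSL1 ATF5 (0.62) and to FOSB CCN1 (1.87). The FOSB pattern had no close match. These distances describe levels and library differences over 6 libraries.

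In height at the start, FOSL2 and JUN stood highest in controls (means of 108.7 and 96.7), then FOSL1 (55.0), JUNB (47.0), FOS (40.0), JUND (28.3) and FOSB (20.3). In silenced cells the order was JUN (88.7), FOSL2 (88.0), FOSL1 (43.3), JUNB (31.3), FOS (22.7), JUND (19.0) and FOSB (12.7). In controls the heights overlapped between FOSL1 and JUNB and between JUNB and FOS, and not between the other neighbours. In silenced cells all neighbours overlapped except FOSL2 and FOSL1. In both groups the library heights of FOSL2 and JUN lay above those of all other genes, and within each library those of FOSB lay below those of FOS. ATF3 was left out of this order, since its listed starts lacked a peak in 3 lists.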

How the data were processed

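ATAC-seq peak lists of 6 NCI-H1703 libraries were used, 3 silenced and 3 control. Per the submitters' processing notes, Trimmomatic 0.36, Bowtie2 2.2.6, Picard 2.8.2, MACS2 2.1.1 and bedtools 2.25.0 were used on GRCh38, with no roles or settings stated there; a shift of read ends is not given in the sources used here. Per the file headers, the authors' lists give each peak's fold enrichment (a ratio to local background), p-value, FDR (an adjusted p-value) and pileup signal, here the height. Nothing is pooled and no total reads are given, so depth is unknown. The local background was recomputed as (height + 1) / fold - 1.

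The strongest peak per merged region (overlap of 1 bp) or within 1 kb of a gene start (RefSeq, GRCh38.p14) was taken. Fold ranks within each list became normal scores, tested with limma 3.58.1 in R 4.3.3 (lmFit, eBayes with trend, no block), with Benjamini-Hochberg adjustment over all regions or genes. Relative heights and backgrounds are log2 values over the library median, and were added after the data had been seen. Single values had two-sided exact permutation tests. The procedure was also run on simulated scores, drawn independently, with a known shift in some genes or regions. The outcome is not given here and no result rests on it. Alternatives were the FDR or height limit, equal list sizes, the measure ranked, distance, window, joining overlap, a replicate block and leaving out each library. Named regions were, among those listed in all 6 libraries, the 2 strongest by mean fold in each window besides the start and those with an unadjusted p under 0.05, and further those listed in all 3 libraries of one group alone with a height of at least 4; of each gene list, the 2 of lowest p and the 2 of highest mean height were named. The values of 1 gene that this rule names are not reported here. The members and lists were chosen with earlier results of these data known. Others named, such as the regions 1.5 kb before FOS, 1.6 kb after FOSB, 2.2 kb before FOSL2 and 1.2 kb before JUN, were chosen after their values were seen.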

Additional observations from a re-analysis of the deposited data

How the results depend on the processing

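No region passed the test under any alternative run, and none of the 7 AP-1 genes tested within 1 kb of their start did. ATF3 had listed peaks within 2 kb of 1 of its 2 starts in all 6 lists, and its result at that distance was not examined. Of 103 values of the 7 gene-start peaks under alternatives, 84 kept their sign and 19 reversed. Reversals were: FOSB 0.23 and JUND 0.27 within 2 kb of the start; FOSL2 -0.0546 ranked by p-value and -0.12 by height; JUNB -0.35 with FDR at most 1e-05, -0.21 ranked by p-value, -0.25 by height, -0.26 as relative height and -0.0074 within 500 bases; the cause was not tested. Leaving out each library gave differences of -0.26 to 0.0732 for FOS, -0.81 to 0.24 for FOSB, -0.16 to 0.0610 for FOSL1, -0.12 to 0.38 for FOSL2, 0.03 to 0.47 for JUN, -0.14 to 0.16 for JUNB, -0.10 to -0.0054 for JUND, -0.51 to -0.34 for the FOS local background, and 0.82 to 1.41 for the FOSB region near ERCC1, whose unadjusted p was above 0.05 without silenced replicate 2, control replicate 1 or control replicate 2, and when ranked by p-value or height or taken as relative height. Genes called at their start were 1 within 2 kb and 0 to 2 when leaving out each library (2 without silenced replicate 3, 1 without control replicate 2). Genes called by local background were 1 to 4, with 2 under the replicate block. None of the genes called was among the 7 AP-1 genes tested within 1 kb. Regions called were 0 under every alternative, with 854 to 2462 at an unadjusted p under 0.05. At gene starts, same-numbered libraries showed no shared deviation in score (correlations of -0.02, 0.00043 and -0.02). The labels state no pairing, and these correlations cannot show whether same-numbered libraries were prepared together. With the replicate block the FOS difference stayed -0.07 and 0 gene starts were called. FOSB and JUND could not be tested at FDR at most 1e-05. Unknown read depth and 3 libraries a group limit what could be seen.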
